A study of Mus musculus with 4 samples.

Results

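Tubulin isotypes are the separately encoded versions of alpha- and beta-tubulin, and 10 of their genes were followed here in RNA that came down with an antibody to DDX20. The members were taken by name from the deposited table: 4 alpha-tubulin genes (Tuba1a, Tuba1b, Tuba1c and Tuba4a) and 6 beta-tubulin genes (Tubb2a, Tubb2b, Tubb3, Tubb4b, Tubb5 and Tubb6). These are 10 of 55357 gene identifiers, and all 10 were among the 17422 genes abundant enough to be tested. Cells came from testes of 7-day-old C57BL/6 mice and were crosslinked with ultraviolet light. The study set 2 libraries of RNA precipitated with a DDX20 antibody (RIP) against 2 libraries of input, which was 10% of total RNA. For all 4 libraries the labels name this strain and the crosslinking and no other genotype or treatment. They name no separate animals or cell preparations either, so p-values measure a spread between libraries that may be technical. The catalogue number of the antibody differs in 1 character between the labels of RIP replicates 1 and 2. No precipitation with a control antibody was analysed here, so a higher value says that a message took a larger part of the RIP RNA than of the input RNA, not that DDX20 bound it.

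Alpha- and beta-tubulin pair into the dimer from which microtubules are built. The isotypes differ little over most of the protein and most in the acidic tail at the carboxyl end, where many enzymes modify tubulin. Cells also adjust tubulin messages to the amount of free dimer: the factor TTC5 recognises the first residues of a newly made tubulin chain on the ribosome, and the message being translated is then degraded. In the testis, microtubules form the mitotic spindle of dividing spermatogonia and Sertoli cells and, later, the meiotic spindle and the sperm tail. DDX20, or Gemin3, is an RNA helicase of the SMN complex, which assembles spliceosomal small nuclear ribonucleoproteins.

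The start and the end of the coding sequence show what the isotypes share and where they part. Sequences are from GENCODE M21 transcripts (GRCm38), 5′ to 3′ on the coding strand. The first 24 coding bases are printed with codons 2 to 4 in capitals, which with the start codon encode the residues that TTC5 reads: methionine, arginine and glutamate, then cysteine in alpha-tubulin or isoleucine in beta-tubulin.
Tuba1a: atgCGTGAGTGCatctccatccat
Tuba4a: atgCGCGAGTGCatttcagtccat
Tubb2a: atgCGCGAGATCgtgcacatccag
Tubb2b: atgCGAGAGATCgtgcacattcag
Tubb3: atgAGGGAGATCgtgcacatccag
Tubb4b: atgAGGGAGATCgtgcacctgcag
Tubb5: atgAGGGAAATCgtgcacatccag
The last 30 coding bases before the stop codon are printed next for 7 members with the last codon in capitals. The isotypes differ most in the acidic tail, but the printed ends of Tubb2a and Tubb2b encode the same residues.
Tuba1c: gctgaaggagacgatgagggtgaggaaTAT
Tuba4a: tcctatgaggacgaggatgagggagaaGAG
Tubb2a: ttcgaggaggaggagggtgaagatgagGCT
Tubb2b: ttcgaggaggaagagggcgaggatgagGCT
Tubb3: gacgaggaatcggaagcccaggggcccAAG
Tubb4b: tttgaggaggaggctgaggaggaggtgGCT
Tubb5: gatttcggagaggaggcagaagaggagGCC
Tuba1c ends in a tyrosine codon, TAT, and Tuba4a ends in a glutamate codon, GAG. That tyrosine is the residue removed and put back in the detyrosination cycle of alpha-tubulin. Coding lengths ran from 1332 nt in Tubb5 to 1353 nt in Tuba1a and Tuba1b, whereas the transcripts chosen for the annotation ran from 1598 nt in Tubb4b to 2840 nt in Tuba4a.

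Input replicates 1 and 2 held 21913977 and 21416567 counts, and RIP replicates 1 and 2 held 38458014 and 37927689. Tubulin members took 0.329% and 0.331% of all counts in the input replicates, against 0.273% and 0.269% in the RIP replicates. Levels are given as CPM (read counts relative to library size) after scaling by the trimmed mean of M values (TMM), and between genes only per kb of merged exons. Markers of the expected testis cells were present in the input: all 5 Sertoli cell genes (for example Amh at 369.9 CPM), all 5 germ cell genes, all 5 Leydig cell genes and all 4 genes of peritubular myoid cells passed the filter. Of 4 spermatid genes 1 passed, and Acrv1 was at 0 in all 4 libraries. In RIP all 5 germ cell genes were called lower with TMM scaling, where 38.6% of all genes tested were lower. Their summed levels were 410.5 and 409.8 CPM in input and 144.5 and 146.8 CPM in RIP. All 5 Leydig cell genes were called lower too (321.1 and 311.6 against 145.5 and 148.6 CPM). So were all 4 macrophage and all 3 red blood cell genes, 2 of 3 endothelial genes and 2 of 4 peritubular myoid genes. No gene of these lists was called higher, so lower calls were not particular to germ and Leydig cell genes. Of 4 spermatogonia genes Zbtb16 (0.38 on the log2 scale) and Gfra1 (0.35) were called higher, Kit (0.05) was not called and Stra8 (-1.30) was lower, with summed levels of 153.2 and 146.7 CPM in input and 85.1 and 85.6 CPM in RIP. Of the 5 Sertoli cell genes 2 were higher and 2 lower. The part of such cell types in the tubulin results was not tested. A marker lower in RIP took a smaller part of the RIP RNA than of the input RNA, which gives no count of cells.

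Per kb, Tubb5 and Tubb4b were the most abundant members of the input, at 356.1 ± 6.43 and 331.3 ± 4.56 CPM per kb (SD, n = 2 libraries). Tuba1a (175.2 ± 2.64) and Tuba1b (157.0 ± 1.18) followed, then Tuba1c (59.3 ± 0.307), Tubb2a (43.3 ± 0.0385), Tubb6 (41.1 ± 1.64), Tubb2b (28.3 ± 0.484), Tubb3 (16.3 ± 0.261) and Tuba4a (11.3 ± 1.11), all in CPM per kb. Of the neighbours in this order, Tubb2a and Tubb6 alone had means closer than 2 times an SD (that of Tubb6), with library values of 43.3 and 43.4 against 42.3 and 39.9 CPM per kb. In RIP the order changed in several places. Tubb5 stood at 478.4 ± 5.60 and Tubb4b at 260.4 ± 5.84 CPM per kb, so the near-equal levels of the input had moved apart. Tuba1b (131.1 ± 3.29) lay above Tuba1a (117.6 ± 4.31), and Tuba4a (11.9 ± 0.390) above Tubb3 (8.92 ± 0.816). Between them came Tubb2a (60.1 ± 2.75), Tubb6 (48.9 ± 1.24), Tuba1c (46.5 ± 2.42) and Tubb2b (36.98 ± 0.376), in CPM per kb. Tubb6 and Tuba1c did not differ beyond their spread in RIP, since a Tuba1c library at 48.2 CPM per kb exceeded a Tubb6 library at 48.0.

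**Figure D1:**
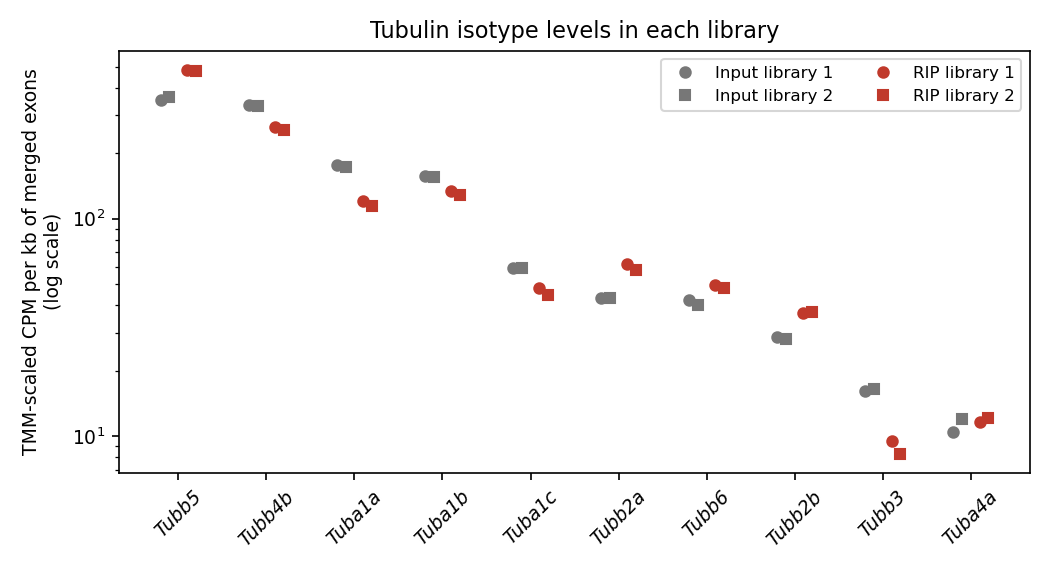
Level of each tubulin isotype in each library, in TMM-scaled CPM per kb of merged exons on a log axis; grey points are the 2 input libraries and red points the 2 RIP libraries. Tubb5 is highest in every library, and only for Tuba4a do the input and RIP points overlap in height.

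Isotypes went in both directions between input and RIP. By the quasi-likelihood test of edgeR, with p-values adjusted by Benjamini-Hochberg over all 17422 genes, 4 members were higher in RIP, all of them beta-tubulins, 5 were lower and 1 was not called. The background was high: 38.7% of all genes tested were called higher and 38.6% lower, 77.3% in all, so 9 called members of 10 is near what the table holds throughout. The median log2 fold change of the members was -0.09, against -0.05 for all genes tested. The members lay between the 27.3rd and the 67.1st percentile of log2 fold change over all genes tested. Libraries of the 2 groups did not overlap for 9 of 10 members, against 88% of all genes tested.

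The call counts of the members depend on how libraries are scaled. With total counts 2 members were higher and 7 lower, against 28.7% and 50.8% of all genes (79.4% in all). Upper-quartile scaling also gave 2 and 7, against 28.8% and 50.5% (79.3% in all). The median over all genes, -0.05 with TMM scaling, was -0.40 and -0.39 with these scalings. Distances between members hardly moved with the scaling. From Tubb3 at the bottom to Tubb2a at the top they spanned 1.35 log2 units. Tubb3 was lowest and Tubb2a highest in each of 15 alternative settings, where the distance was 1.30 to 1.49.

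Tubb5, the broadly expressed beta-tubulin of dividing cells and the most abundant member, stood at 1169 and 1200 CPM in input and at 1605 and 1579 CPM in RIP. Both RIP libraries were above both input libraries. Tubb5 rose by 0.43 ± 0.0223 on the log2 scale (SE, n = 2 libraries per group; adjusted p from edgeR = 1.80e-18), and by 0.08 with total counts, where it was also called. The gene lies on chromosome 17 from 35833921 to 35838306, on the minus strand (GRCm38).

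Tubb2a and Tubb2b are neighbouring genes on chromosome 13, from 34074274 to 34078007 and from 34126748 to 34130466, and encode nearly the same class II beta-tubulin. Tubb2a stood at 69.7 and 69.8 CPM in input and at 99.8 and 93.6 CPM in RIP. Tubb2b stood at 65.8 and 64.2 CPM in input and at 84.2 and 85.4 CPM in RIP. For each gene both RIP libraries were higher. Tubb2a rose by 0.47 ± 0.0465 on the log2 scale (0.12 with total counts, also called), and Tubb2b rose by 0.38 ± 0.0475 with TMM scaling but was not called with total counts (0.035) or upper-quartile scaling (0.041). The ratio of Tubb2a to Tubb2b counts was 1.06 and 1.09 in input and 1.19 and 1.10 in RIP, so the pair kept nearly the same proportion. Tubb6, a class V beta-tubulin, stood at 103.0 and 97.3 CPM in input and at 121.3 and 117.0 CPM in RIP. Its RIP libraries were higher with TMM scaling (0.25 ± 0.0415, called higher) and lower with total counts (-0.10) and upper-quartile scaling (-0.09), where it was called lower.

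Tubb4b, a class IV beta-tubulin found in many tissues and in the axonemes of cilia and flagella, went the other way from Tubb5. It stood at 698.4 and 685.0 CPM in input and at 552.3 and 535.1 CPM in RIP, with both RIP libraries lower. The log2 fold change was -0.35 ± 0.0253 (adjusted p from edgeR = 1.75e-14) and -0.70 with total counts, but 0.22 with an offset for exonic length, described further on. The 3 ciliated cell markers listed summed to 11.3 and 11.2 CPM in input and to 5.56 and 5.88 CPM in RIP. Most of that sum was Rsph1 (9.48 CPM in each input library), which alone was called lower (-1.16). Foxj1 was not called (-0.17) and Dnah5 was too low to be tested. The part of such cells in the Tubb4b result was not tested. The gene lies on chromosome 2 from 25222160 to 25224702. Tubb3, the class III beta-tubulin known as a marker of neurons, had the lowest fold change of all members. Its level was 30.2 and 30.9 CPM in input and 17.7 and 15.6 CPM in RIP, a log2 fold change of -0.87 ± 0.0841 (adjusted p = 2.35e-11 in edgeR). With the exonic length offset the value was -0.20 (adjusted p = 0.0394 in edgeR). Tubb3 lies on chromosome 8 from 123411424 to 123422015. The 4 neuron markers listed (Rbfox3, Snap25, Syp and Elavl4) summed to 1.90 and 2.19 CPM in input and 1.30 CPM in each RIP library. Snap25 was at 0 in both input libraries, and Elavl4 at 0 in 1 of them. Syp fell by 1.20 and Rbfox3 was not called (-0.39), and the part of such cells in the Tubb3 result was not tested. Tubb3 and Tubb4b carry the same letters at codons 2 to 4 in the sequences above.

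All 3 genes of the Tuba1 cluster on chromosome 15 were lower in RIP with TMM, upper-quartile and total-count scaling, and all 3 were higher with the exonic length offset described further on. Tuba1a, the main alpha-tubulin of young neurons and also made elsewhere, stood at 319.2 and 312.5 CPM in input and at 217.5 and 206.5 CPM in RIP. It fell by 0.58 on the log2 scale (SE 0.0314), the most of the alpha members. Tuba1b, the common alpha-tubulin of dividing cells, stood at 296.0 and 292.8 CPM in input and at 250.2 and 241.5 CPM in RIP, and fell by 0.26 (SE 0.0302). Tuba1c stood at 135.1 and 136.1 CPM in input and at 110.2 and 102.4 CPM in RIP, and fell by 0.35 (SE 0.0406). For each of these genes both RIP libraries were below both input libraries. Tuba4a, the alpha-tubulin that ends without the tyrosine codon, stood at 38.8 and 44.6 CPM in input and 42.9 and 44.9 CPM in RIP. Its groups overlapped, and it was not called with TMM scaling (log2 fold change 0.08 ± 0.0675, adjusted p from edgeR = 0.308) but was called lower with total counts (-0.27). Tuba1b, Tuba1a and Tuba1c start at 98931425, 98949837 and 99029891 on chromosome 15, and Tuba4a lies on chromosome 1 from 75214228 to 75219865.

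**Figure D2:**
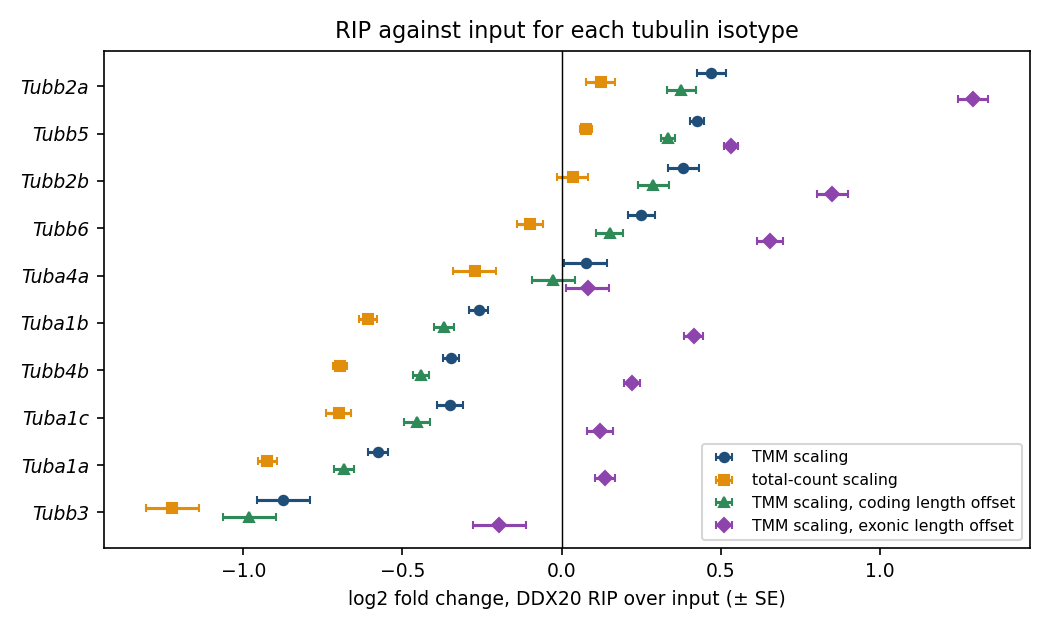
Log2 fold change of RIP over input for each isotype with its standard error, under TMM scaling, total-count scaling, and TMM scaling with an offset for coding length or for exonic length. The members keep their order while the whole set shifts left with total counts. With the exonic length offset the order changes in part, and 8 members lie above 0 with a call and Tubb3 below it.

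Shares within a family do not depend on the scaling between libraries, and they showed the same shift in makeup. Tubb5 made up 54.7% and 55.9% of beta-tubulin member counts in input and 64.7% and 65.1% in RIP. Tubb4b made up 32.7% and 31.9% in input and 22.3% and 22.1% in RIP. The ratio of Tubb5 to Tubb4b counts was 1.67 and 1.75 in input and 2.91 and 2.95 in RIP, a change of 1.71-fold. On the log2 scale Tubb5 lay 0.77 above Tubb4b in the fitted fold changes, and 0.31 above it with the exonic length offset. Tubb3 went from 1.41% and 1.44% to 0.715% and 0.642% of beta-tubulin counts. Tubb2a had 3.26% and 3.25% in input and 4.02% and 3.86% in RIP, and Tubb2b had 3.08% and 2.99% in input and 3.395% and 3.52% in RIP. Tubb6, at 4.68% ± 0.203 in input and 4.86% ± 0.0462 in RIP (SD, n = 2), was nearly level. No test is given for these shares, because 2 libraries against 2 cannot go below an exact two-sided permutation p of 0.333.

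Within alpha-tubulin the shift was smaller. Tuba1a went from 40.5% and 39.8% of alpha-tubulin member counts in input to 35.03% and 34.7% in RIP. Tuba1b went from 37.5% and 37.3% to 40.3% and 40.6%, so that the leading gene among the alpha members changed. Tuba3a, which is not a member, had more counts than either in every library (12314 and 12161 in input, 13005 and 13171 in RIP). Tuba4a went from 4.92% and 5.67% to 6.91% and 7.55%, though this gene overlaps another. Tuba1c stayed at 17.2% ± 0.137 in input and 17.5% ± 0.392 in RIP, with overlapping libraries. Across both families, beta-tubulins were 73.0% and 73.2% of member counts in input and 79.98% and 80.3% in RIP. That total leaves out Tuba3a and Tuba3b, so these are not shares of all tubulin counts. The rise with all alpha and beta tubulin genes in the total is given in the last section. Exact Clopper-Pearson 95% intervals on halved counts were 54.1% to 55.3% for Tubb5 in input replicate 1 and 64.2% to 65.2% in RIP replicate 1. Counts were halved for them because both mates of a read pair appear to have been counted, and the intervals cover counting error only.

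**Figure D3:**
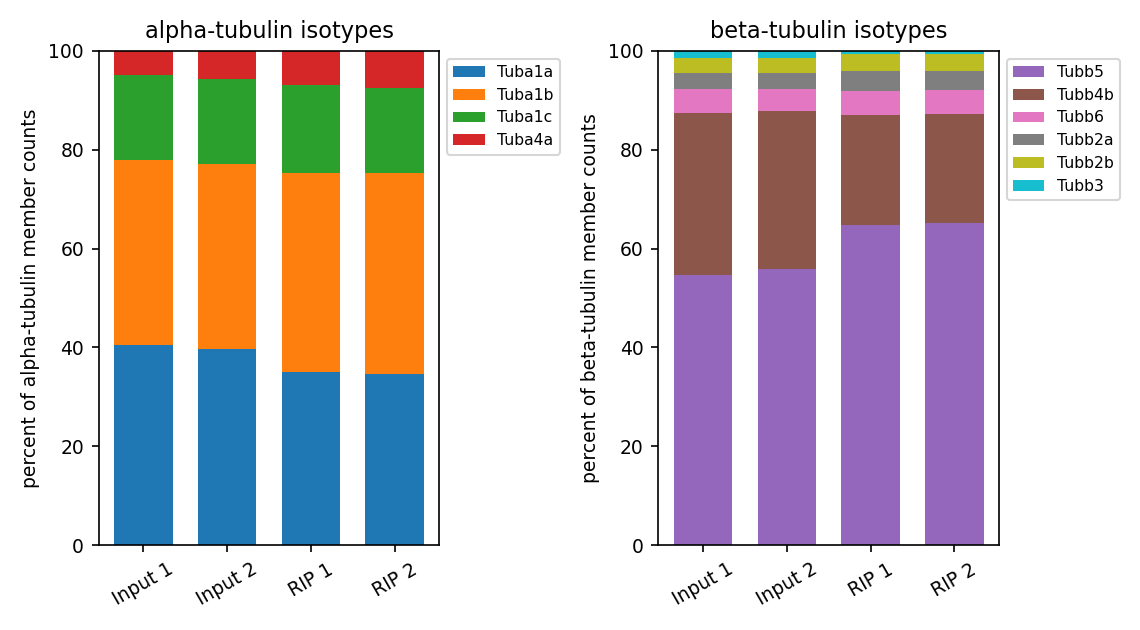
Stacked bars giving each isotype's percent of the alpha-tubulin (left) or beta-tubulin (right) member counts in each of the 4 libraries. Tubb5 takes about 55% of the beta-tubulin bar in input and 65% in RIP, mainly in place of Tubb4b.

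Isotypes share long stretches of sequence, so part of these counts depends on how reads with several matches were treated, which is not given in the sources used here. Coding sequences were 98.3% identical between Tuba1a and Tuba1b, 97.9% between Tuba1b and Tuba1c and 96.5% between Tubb2a and Tubb2b, against 80.2% to 85.9% between the other beta members. Of all windows of 150 nt (the read length) in the chosen transcript, 57.9% in Tuba1b, 54.7% in Tuba1a and 46.7% in Tuba1c were also found letter for letter in transcripts of another gene. Many of those windows lay in the other Tuba1 genes and many in predicted genes, and a window can lie in several genes. Tuba1a shared 444 of its 905 such windows with Tuba1c and 431 with the predicted gene Gm49450. Tuba1b shared 649 of its 923 with Tuba1c and 430 with Gm49450. In Tubb2a and Tubb2b 27.9% and 20.1% of windows were shared, all of them with each other, and in Tubb4b 16.8%, all with the pseudogene Tubb4b-ps1. Values for these 6 genes are uncertain to that extent. Tuba4a shares no window with another tubulin, but 37.3% of its exonic bases lie under exons of Stk16 on the opposite strand, and the kit does not mark strand. Tuba1a and Tuba1b overlap exons of other genes over 26.2% and 27.4% of their exonic bases, and Tubb4b over 5.795%.

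The isotypes with no shared window lay far apart with TMM scaling. Tubb3, Tubb5 and Tubb6 share no window and overlap no other gene, and their log2 fold changes were -0.87, 0.43 and 0.25, or -0.20, 0.53 and 0.65 with the exonic length offset. The ratio of Tubb5 to Tubb3 counts was 38.7 and 38.8 in input and 90.5 and 101.3 in RIP, a change of 2.47-fold. That of Tubb6 to Tubb3 was 3.41 and 3.15 in input and 6.84 and 7.51 in RIP, a change of 2.19-fold. Each change was larger than the spread between replicates, which was at most 0.16 on the log2 scale for both ratios.

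**Figure D4:**
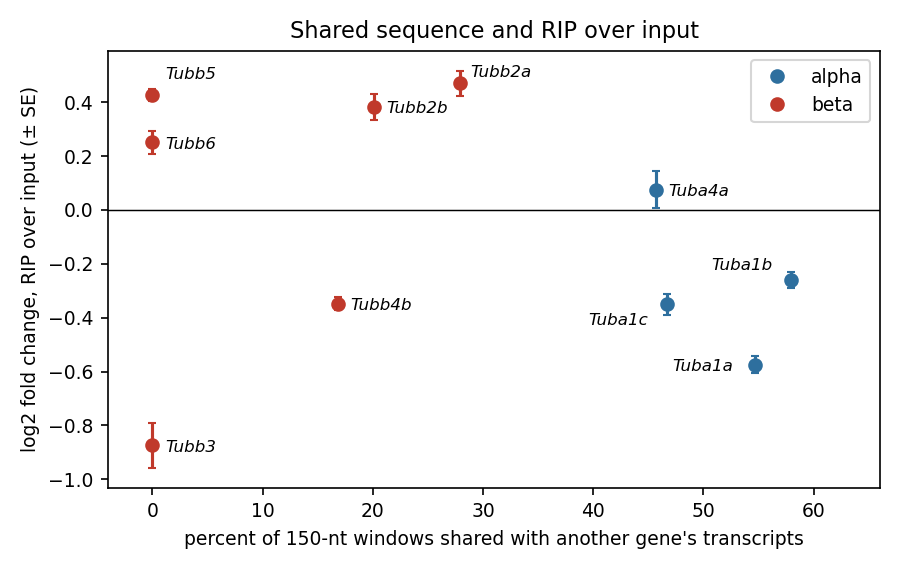
Log2 fold change of RIP over input with its standard error (vertical) against the percent of 150-nt windows that another gene's transcripts share (horizontal), for the 10 members. Tubb3, Tubb5 and Tubb6 all sit at 0% shared, with Tubb3 more than 1 log2 unit below the other two.

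The isotypes are nearly equal in coding length and differ in the length of their exons. A smooth trend of log2 fold change on coding length over all genes gave the members values between 0.09 and 0.11, and an offset for it left 4 members called higher and 5 lower (39.3% and 33.9% of the 14686 genes with a coding length). Merged exons ran from 1610 nt in Tubb2a to 3701 nt in Tuba4a, and the trend on exonic length gave values from -0.82 in Tubb2a to -0.0074 in Tuba4a. With an offset for that trend 8 members were called higher and only Tubb3 lower, against 37.6% and 32.3% of all genes (69.9% in all). Tuba1a then stood at 0.14, Tuba1b at 0.42, Tuba1c at 0.12 and Tubb4b at 0.22, all called higher, so the direction of these 4 genes depends on whether exonic length is taken into account. Over the 10 members the log2 fold change had a Spearman's rho of -0.75 with coding length (-0.63 over the 4 alpha and -0.70 over the 6 beta members), whose range is only 1332 to 1353 nt. Spearman's rho was 0.079 with transcript length, -0.47 with GC content of the transcript, 0.41 with the length of the 3′ untranslated region and 0.39 with GC content at the last position of codons. These are descriptions over 10 genes that share libraries and, in part, reads. Tubb2a and Tubb4b, with transcripts of 1610 and 1598 nt and the same coding length of 1335 nt, stood at 0.47 and -0.35.

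Other tubulins outside the 10 members also went both ways. Of 10 listed, 8 were tested, and 3 were higher and 4 lower, against 1 and 4 with total counts and 5 and 1 with the exonic length offset. Tuba3a and Tuba3b, the alpha-tubulins typical of testis, had more input counts than any alpha member, at 501.3 ± 3.09 and 483.2 ± 0.309 CPM, and fell by 0.37 and 0.60. Both stood above 0 with the exonic length offset (0.51 and 0.13). Their coding sequences are 96.96% identical, but only 2.65% and 2.21% of their windows are shared. Tubb4a, the class IV partner of Tubb4b that is best known from brain, rose from 13.3 ± 0.199 to 22.4 ± 0.0824 CPM, by 0.76 on the log2 scale and by 0.41 with total counts. The ratio of Tubb4a to Tubb4b counts went from 0.0188 and 0.0196 in input to 0.0407 and 0.0418 in RIP. Delta-tubulin, Tubd1, which serves centrioles, was called higher at 0.26 (adjusted p from edgeR = 0.0411) but stood at -0.08 with total counts. Leaving out input replicate 1 (0.28), input replicate 2 (0.27) or RIP replicate 2 (0.26) ended that call, as did DESeq2 (0.29), halved counts (0.21), a filter of 1 CPM in 2 libraries (0.18) and the coding length offset (0.15). With each of these last 4 settings 1 of the other tubulins was called higher. Tubal3 and Tubb1 had at most 2 counts in any library.

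With TMM scaling the chaperones that fold tubulin split by complex. Prefoldin hands new tubulin to the ring-shaped chaperonin CCT, and all 6 prefoldin genes fell, with a median of -1.73; Pfdn5 fell from 564.4 ± 9.25 to 192.8 ± 2.14 CPM and Pfdn1 from 290.3 ± 7.45 to 70.6 ± 0.150 CPM. All 8 CCT genes rose with TMM scaling, with a median of 0.56, but with total counts 6 rose and 1 fell. Cct7 rose by 0.61, and Cct5, the most abundant, rose by 0.15 under TMM but had a value of -0.20 with total counts. Over all genes tested 38.7% rose and 38.6% fell, with a median of -0.05. Coding lengths were 366 nt (Pfdn1) to 588 nt (Vbp1) in prefoldin genes and 1605 nt (Cct2) to 1668 nt (Tcp1) in CCT genes. Cct6a had no coding length in the annotation. With the coding length offset 2 prefoldin genes rose and 4 fell, and 6 CCT genes rose and 1 fell.

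The list of tubulin folding cofactors, which act after CCT, and genes related to them came out mixed, with 3 of 8 higher and 4 lower. Tbcd, which binds beta-tubulin, rose by 1.57 from 70.5 ± 2.36 to 209.8 ± 5.19 CPM, and Tbcel rose by 0.78, though it was not called with the exonic length offset (0.11). Tbcb, which binds alpha-tubulin, fell by 1.31 and Tbca, which holds beta-tubulin, fell by 1.42. With the coding length offset Tbca stood at -0.12 and was not called. With an offset for either length 2 members of this list were lower.

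Enzymes that modify tubulin, most of them at the tails printed above, were called higher in 11 and lower in 6 of 22 tested genes with TMM scaling, 10 and 9 with total counts, and 7 and 10 with the exonic length offset. Ttll12, of the tubulin tyrosine ligase-like family, rose by 1.05 and Hdac6, a deacetylase that acts on alpha-tubulin outside the tail, by 1.14, though Hdac6 was not called with the coding length offset (0.07). Svbp, the partner of the vasohibins that remove the tyrosine of alpha-tubulin, fell by 1.55 under TMM but had a value of 0.14 with the coding length offset. Tpgs2, a subunit of a polyglutamylase, fell by 1.18. Ttc5, the autoregulation factor, was at 17.3 ± 1.62 CPM in input and 18.3 ± 0.315 in RIP and was not called (0.08, adjusted p from edgeR = 0.432), while with total counts it was called lower (-0.27).

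Genes whose products bind or remodel microtubules rose in 21 of 30 cases and fell in 4, with a median of 0.93. With total counts 17 rose and 8 fell, and with the exonic length offset 18 and 8. Of all genes tested 38.7% rose and 38.6% fell with TMM scaling. Coding lengths in this list ran from 447 nt in Stmn1 to 9042 nt in Map1a. Its counts with the coding length offset are not given here. Ckap5, a microtubule polymerase, rose from 183.2 ± 4.37 to 854.1 ± 3.82 CPM (2.22 on the log2 scale), and Map4 rose by 1.18. Stmn1, which binds free tubulin dimers, fell by 0.89, though it stood at 0.15 with the coding length offset, and Map7 fell by 1.19. In the gamma-tubulin ring complex, which nucleates microtubules, 6 of 10 rose and 4 fell, against the same shares of all genes. Coding lengths were 1980 to 5307 nt in the genes that rose and 234 to 1353 nt in those that fell. Tubgcp6 rose by 1.73 and Tubgcp2 by 0.80, the latter standing at -0.05 with the coding length offset, while Tubg1 fell by 0.63 and Mzt2 by 1.51.

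**Figure D5:**
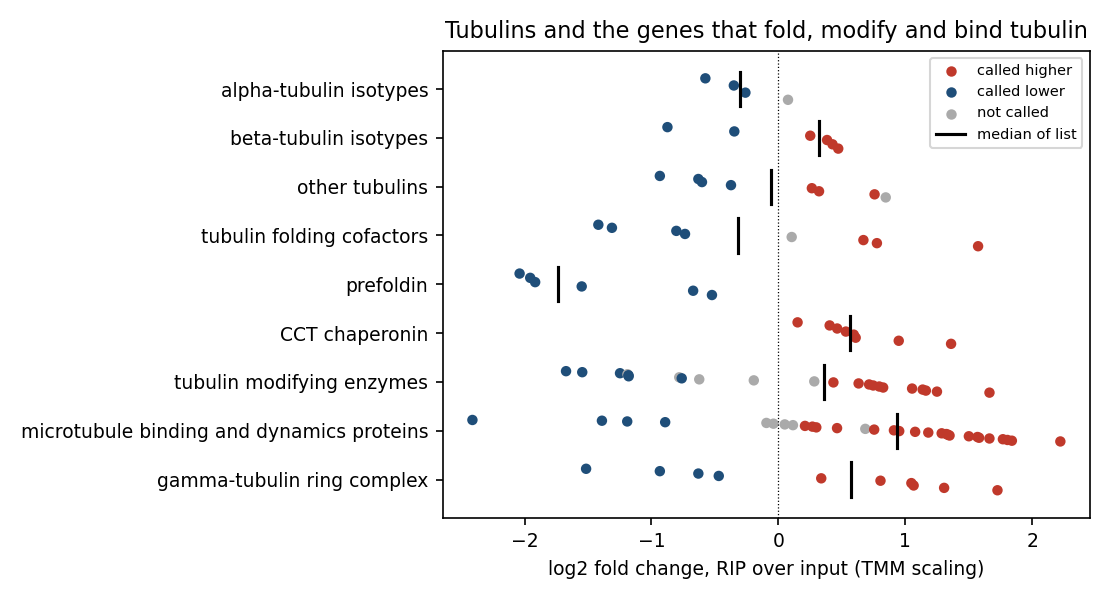
Log2 fold change of RIP over input (TMM scaling) for the tested genes of each list, 1 point per gene, coloured by call, with the median of the list as a black bar. Prefoldin genes all lie left of 0 and CCT genes all right of it, while both tubulin families spread over less than 1.5 log2 units.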

How the data were processed

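The authors deposited raw read counts per gene, 1 column per library, with 55357 identifiers. The submitters' processing notes list the build GRCm38 and the tools STAR 2.7.2b, featureCounts, cutadapt 4.1, Trimmomatic 0.36 and SAMtools; their order, their settings and the annotation release were not given in the sources used here. Nonzero counts were even in 65.4% to 67.4% of cases per library, which counting both mates of each pair would give. Symbols, lengths, coordinates and transcripts came from GENCODE M21, which names 52081 identifiers (94.1%) but carries the same version number for only 35 of them, so the counted gene models can differ.

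Group and replicate came from the sample titles. Replicates differed slightly more than counting noise (median chi-square of halved counts 1.19 times that of noise for input, 1.15 for RIP, 61.2 between groups) and were kept apart. Counts were filtered with filterByExpr, scaled by TMM and tested with edgeR 4.0.16 (robust quasi-likelihood) in R 4.3.3, at a Benjamini-Hochberg adjusted p of 0.05. Each SE was taken as the log2 fold change over the root of its F statistic. The alternatives comprised scaling by RLE, by upper quartile or by total counts, no filter or 1 CPM in 2 libraries, DESeq2 1.42.0, limma-voom (limma 3.58.1), a replicate block, each library left out, halved counts, and loess offsets (span 0.3) for coding or merged exonic length. The edgeR step was tested on simulated data. All 10 members and, per pathway list, the 2 called genes of highest mean CPM per direction were named (where none was called, the most abundant). Members, lists and tests were chosen with earlier results of these data known. The coding ends of the other 3 members are not reported here.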

Additional observations from a re-analysis of the deposited data

How the results depend on the processing

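The 4 higher and 5 lower tubulin isotypes became 2 and 7 with upper-quartile or total-count scaling and 8 and 1 with the exonic length offset; the counts of 4 and 5 were kept in the other 12 settings. Signs turned as follows, on the log2 scale. Upper-quartile scaling gave -0.27 for Tuba4a, -0.091 for Tubb6, -0.079 for Tubd1, -0.19 for Cct5 and -0.26 for Ttc5, and total counts gave -0.27, -0.10, -0.085, -0.20 and -0.27 for the same genes. With the exonic length offset Tuba1a stood at 0.14, Tuba1b at 0.42, Tuba1c at 0.12, Tubb4b at 0.22, Tuba3a at 0.51, Tuba3b at 0.13 and Tbca at 0.023. With the coding length offset Tuba4a stood at -0.026, Cct5 at -0.14, Svbp at 0.14, Stmn1 at 0.15 and Tubgcp2 at -0.054. With a filter of 1 CPM in 2 libraries Tuba4a stood at -0.0079 and Ttc5 at -0.0013. The uncalled Tuba4a ran from -0.0020 to 0.18 and Ttc5 from -0.0080 to 0.20 when 1 library was left out, and the Tuba1c share difference ran from -0.018 (without RIP replicate 1) to 0.54 percentage points. The causes were not tested. The rise of the beta-tubulin share, 7.02 percentage points, was 7.47 per kb of exonic length and 10.2 for the same 6 beta members as a share of all alpha and beta tubulin genes, and 6.87 to 7.18 when 1 library was left out. With the replicate number as a block 4 isotypes were higher and 5 lower, as without it, and 6734 and 6655 of all genes. Deviations of same-numbered libraries had a correlation of -0.0010. Replicates differed little beyond counting noise, so this value cannot show whether equal numbers share cells. Depth limits Tuba8, with 11 counts in each input library.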
